A study of Homo sapiens with 4 samples.

Results

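The Eph receptors and their ephrin ligands were followed in the pancreatic cancer line MIA-PaCa2, of human origin, with and without selection for resistance to AMG510. Eph receptors are the largest family of receptor tyrosine kinases. They bind ephrins on the surface of neighbouring cells, so a signal passes mainly where cells touch. It runs forward into the cell with the receptor and in reverse into the cell with the ligand. EphA receptors mainly bind ephrin-A ligands, which hang on the membrane by a lipid anchor, and EphB receptors mainly bind ephrin-B ligands, which span it. In epithelial tissues they set cell boundaries, repulsion and migration, and several of them are altered in carcinomas. The genes described were 6 receptors (EPHA2, EPHA4, EPHB2, EPHB3, EPHB4 and EPHB6) and 4 ligands (EFNA1, EFNA5, EFNB1 and EFNB2), taken by gene symbol from the 57773 genes listed. All 10 had enough counts to be among the 16090 genes tested. The receptor genes are EPHA2 (ENSG00000142627) and EPHB2 (ENSG00000133216) on chromosome 1, EPHA4 (ENSG00000116106) on chromosome 2, EPHB3 (ENSG00000182580) on chromosome 3, and EPHB4 (ENSG00000196411) and EPHB6 (ENSG00000106123) on chromosome 7. The ligand genes are EFNA1 (ENSG00000169242) on chromosome 1, EFNA5 (ENSG00000184349) on chromosome 5, EFNB1 (ENSG00000090776) on the X chromosome and EFNB2 (ENSG00000125266) on chromosome 13.

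AMG510 (sotorasib) is a small-molecule cancer drug that binds its target covalently. The resistant group held 2 libraries, from populations grown with rising AMG510 over 2 months to a final 5 µM. The untreated group held 2 libraries of the parental line that had not been given the drug. Both groups grew in DMEM with fetal calf serum, and the labels do not say whether the drug was present at harvest. Resistant replicate 2 is tagged AMG511 in its treatment label and AMG510 in its title, and was used by its title. The design text speaks of 2 cell populations in each group, without saying how far apart they were grown, so p-values cover the spread between the 4 libraries alone.

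Expected counts, the read counts assigned to each gene, summed to between 30146559 and 38052558 per library. A count of 0 allows up to 3 counts, which was between 0.0801 and 0.104 CPM (a gene's counts scaled to the total of its library). The 5 epithelial markers summed to 2050 to 2620 CPM in the resistant and 3960 to 5640 CPM in the untreated libraries. The keratins KRT8, KRT18 and KRT19 made up these sums, while the epithelial adhesion genes EPCAM and CDH1 were at 2.085 CPM or less in every library. The 4 pancreatic acinar markers summed to at most 0.0592 CPM in resistant libraries and to 0 in untreated ones, with PRSS1 and PTF1A at 0 counts. Summed markers of other cells were 1.04 to 5.87 CPM in resistant against 4.25 to 8.45 CPM in untreated libraries for endothelium (4 of the 5 matched). They were 5.42 to 7.45 against 1.35 to 4.27 CPM for fibroblasts, and 0.355 to 0.587 against 4.71 to 10.3 CPM for blood cells. CDH5, PDGFRB, COL1A1 and LYZ made up most of these sums, and TEK, KDR, DCN, THY1, PTPRC and CD3E were at or near 0. Their part in the results below was not tested. In bulk libraries, fewer cells with a transcript and less transcript per cell cannot be told apart.

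Resistant cells differed from untreated cells in the levels of several Eph and ephrin transcripts. EPHB6 rose 8.08-fold, EFNA1 2.36-fold and EPHA4 1.5-fold. Of these, EPHB6 passed the filter on low counts only through the resistant libraries, where it was high, so its place among the risers depends on that filter. EFNB2 fell 4.98-fold, EPHB2 4.89-fold, EFNB1 2.07-fold and EPHA2 1.61-fold. EPHB3, EPHB4 and EFNA5 did not pass the test. Of the 10, 3 were called higher and 4 lower in resistant libraries, 7 in all, where called means an adjusted p under 0.05 (quasi-likelihood test of edgeR, adjusted by Benjamini-Hochberg over every tested gene). Over all tested genes 34.0% were called, 16.6% higher and 17.4% lower. The 10 were chosen with earlier results of these data known, so their share beside 34.0% is not read as a trait of the family. Of the 17 tested genes in the whole family of 22, which include the 10, 9 were called (52.9%). The groups were without overlap in 8 of the 10 genes, against 70.9% of all tested genes. The median log2 fold change was 0.11 over the 10 genes and −0.01 over all tested genes. Leaving out a library leaves its group with 1, which is then assumed to vary like the libraries of the other group, so calls from such fits are weak support. Without untreated replicate 1 the number called was 4 of 10, with EFNA1 the only riser, and the number over all genes was 2832 in place of 5463.

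**Figure D1:**
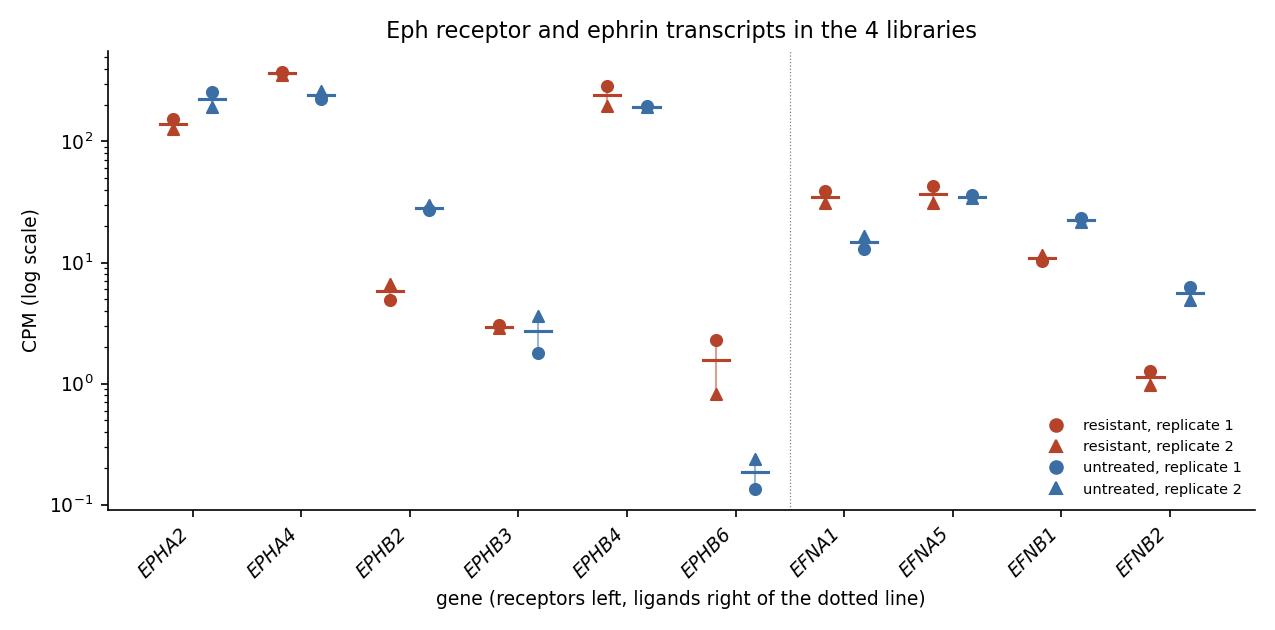
CPM of the 6 receptors and 4 ligands on a log scale, resistant libraries left of untreated ones for each gene, with circles for replicate 1, triangles for replicate 2 and a horizontal bar at the mean of the 2 libraries. EPHB2, EFNB1 and EFNB2 sit lower in both resistant libraries and EPHB6 and EFNA1 sit higher, while EPHB3 and EFNA5 overlap between groups.

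The 4 genes with the largest changes also show how different the starts of these genes are. The 250 bases before each RefSeq start are printed here (GRCh38.p14, the build of the RefSeq table, not the GRCh37 build named for the counts), with every CG dinucleotide in capitals. They were chosen as the 2 members that fell most and the 2 that rose most. EPHB2 is at chr1:22710588-22710837 on the plus strand, EFNB2 at chr13:106535663-106535912 on the minus strand, EPHB6 at chr7:142862506-142862755 on the plus strand and EFNA1 at chr1:155127626-155127875 on the plus strand.
EPHB2: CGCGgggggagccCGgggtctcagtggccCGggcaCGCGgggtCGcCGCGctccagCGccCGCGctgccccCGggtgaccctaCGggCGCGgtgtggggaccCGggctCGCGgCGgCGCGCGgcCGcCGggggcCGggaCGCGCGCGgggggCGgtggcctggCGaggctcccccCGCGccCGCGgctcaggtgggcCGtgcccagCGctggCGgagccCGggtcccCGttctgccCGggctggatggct
EFNB2: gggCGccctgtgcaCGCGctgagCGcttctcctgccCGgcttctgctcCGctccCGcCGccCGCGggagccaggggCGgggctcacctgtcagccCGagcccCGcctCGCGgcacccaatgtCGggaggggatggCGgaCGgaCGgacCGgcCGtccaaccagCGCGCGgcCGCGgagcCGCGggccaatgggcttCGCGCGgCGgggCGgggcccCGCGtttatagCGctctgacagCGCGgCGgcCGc
EPHB6: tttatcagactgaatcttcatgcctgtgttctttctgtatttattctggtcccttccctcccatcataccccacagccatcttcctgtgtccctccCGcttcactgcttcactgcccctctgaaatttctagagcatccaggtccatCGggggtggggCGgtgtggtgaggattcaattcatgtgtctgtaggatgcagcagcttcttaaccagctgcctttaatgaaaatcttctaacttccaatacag
EFNA1: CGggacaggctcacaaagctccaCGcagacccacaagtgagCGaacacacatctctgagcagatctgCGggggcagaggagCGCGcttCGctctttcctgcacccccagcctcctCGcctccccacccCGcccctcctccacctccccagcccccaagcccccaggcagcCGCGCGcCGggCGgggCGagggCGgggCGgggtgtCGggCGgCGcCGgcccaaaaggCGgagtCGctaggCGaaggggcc
The EPHB2 window held 42 CG dinucleotides and was 84.8% G or C, and the EFNB2 window held 40 at 78.4%. The EPHB6 window held 3 at 48.0%, and the EFNA1 window 24 at 73.2%. Across 34786 distinct windows of this length the median was 11 CG dinucleotides and 58% G or C. Of the other members, EFNA5, which did not pass, had 41, and EFNB1 and EPHA2, which fell, had 15 each. RefSeq gave 12 windows for the 10 genes, since EPHA4 has 2 starts and EPHB2 has 2 starts a base apart, and the counts do not show which start was used.

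Short motifs were searched on both strands of the same windows. TGACGTCA, the CRE bound by CREB and ATF factors, was in the EPHA2 window alone and in 1.64% of all windows. TATAAA was in the EFNB2 window alone and in 10.8% of all windows. TGANTCA (AP-1), CCGGAAG (ETS factors), CTTTGAT (TCF/LEF) and CACGTG (E-box) were in 0 of the 12 windows, and in 6.59%, 8.5%, 2.27% and 6.31% of all windows. GGGCGG, the GC box, was in 12 of 12 windows and in 42.6% of all windows. Most of the 12 windows were above the median of 58% G or C, and the share over all windows was not matched for that. CCAAT was in 6 of the 12 and in 32% of all windows. A match describes the letters and does not show binding.

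Among the 6 receptors of the list, EPHB2 had the smallest adjusted p. It is a receptor for ephrin-B ligands that keeps cell compartments apart in the intestinal crypt. It had 4.865 and 6.69 CPM in resistant replicates 1 and 2, against 27.05 and 29.6 CPM in untreated replicates 1 and 2. Both resistant libraries lay far below both untreated ones. The log2 fold change was −2.29 (SE 0.24, 95% interval −2.82 to −1.77, adjusted p = 0.000103), and 2% of all tested genes fell further. With each library left out in turn the log2 fold change was −2.54 to −2.07.

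EPHA2, a receptor for ephrin-A1 that is overexpressed in many carcinomas, was abundant in every library. It had 153 and 126.5 CPM in resistant replicates 1 and 2, against 256 and 192 CPM in untreated replicates 1 and 2. The groups did not overlap, although untreated replicate 2 stood close to the resistant ones. Its mean was 139.7 ± 18.6 CPM in resistant and 224 ± 45.05 CPM in untreated libraries (SD, n = 2 each). This was a log2 fold change of −0.68 (SE 0.19, 95% interval −1.10 to −0.27, adjusted p = 0.0182), and 17.8% of all tested genes fell further. The call rested on single libraries, with a log2 fold change of −0.44 (adjusted p = 0.179) without untreated replicate 1 and −0.55 (adjusted p = 0.0803) without resistant replicate 2.

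EPHA4, which binds ephrins of both classes, moved the other way from EPHA2. It had 377 and 353 CPM in resistant replicates 1 and 2, against 226 and 261.5 CPM in untreated replicates 1 and 2. Replicates lay close together in each group and the groups did not overlap. Its log2 fold change was 0.58 (SE 0.16, 95% interval 0.22 to 0.95, adjusted p = 0.0197), and 23% of all tested genes rose more. It was not called without untreated replicate 1 (0.50, adjusted p = 0.138) or without resistant replicate 1 (0.55, adjusted p = 0.0983). Its exons overlap those of an antisense gene, AC079834.2, by 353 bases, and with the strand setting unknown its value is uncertain to that extent. AC079834.2 itself averaged 1.85 CPM in resistant and 3.6 CPM in untreated libraries, a small level beside that of EPHA4.

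EPHB6 is a receptor whose kinase domain is inactive, so it signals only through partners. It had 66 and 28 counts in resistant replicates 1 and 2, against 5 and 9 counts in untreated replicates 1 and 2, which were 2.28 and 0.829 CPM against 0.135 and 0.240 CPM. Every resistant library was above every untreated one, but the resistant libraries differed by 1.46 in log2 from each other. The median difference between the resistant libraries over all tested genes was 0.25. EPHB6 had a log2 fold change of 3.01 (SE 0.69, 95% interval 1.5 to 4.53, adjusted p = 0.00754), and 2% of all tested genes rose more. It was 2.14 (adjusted p = 0.0709) without resistant replicate 1, 2.69 (adjusted p = 0.0517) without untreated replicate 1 and 3.57 without resistant replicate 2. The change is large as a ratio and small in transcripts, because the gene was near the limit of detection in untreated cells. Its untreated counts alone would not have passed the filter on low counts. It was tested only because of the resistant libraries, so its call is weak support for a rise.

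EPHB4, the receptor for ephrin-B2 that marks veins in the embryo, was abundant and did not pass. It had 286 and 197 CPM in resistant replicates 1 and 2, against 195.5 and 192 CPM in untreated replicates 1 and 2. Resistant replicate 1 stood high and the other 3 libraries were alike. The log2 fold change was 0.32 (95% interval −0.11 to 0.75, adjusted p = 0.229), which allows anything from 0.927 to 1.68 times the untreated level. Its exons overlap those of SLC12A9, an expressed gene on the opposite strand, by 69 bases. EPHB3, a crypt receptor like EPHB2, was low, with 3.04 and 2.87 CPM in resistant replicates 1 and 2 against 1.79 and 3.61 CPM in untreated replicates 1 and 2. The untreated values enclosed the resistant ones, and the log2 fold change was 0.13 (95% interval −0.80 to 1.07, adjusted p = 0.838). Its sign turned without untreated replicate 1 (−0.27).

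Among the 4 ligands, EFNA1 rose, EFNB1 and EFNB2 fell and EFNA5 did not pass. EFNA1 encodes ephrin-A1, the main ligand of EPHA2, and had 38.7 and 31.1 CPM in resistant replicates 1 and 2, against 12.8 and 16.7 CPM in untreated replicates 1 and 2. The groups were well apart. Its mean was 34.9 ± 5.41 CPM in resistant and 14.75 ± 2.71 CPM in untreated libraries (SD, n = 2 each). Its log2 fold change was 1.24 (SE 0.21, 95% interval 0.77 to 1.71, adjusted p = 0.00187), and it was 1.09 to 1.43 with each library left out.

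EFNB2 encodes ephrin-B2, a ligand of EPHB2 and EPHB4 that marks arteries in the embryo. It had 1.28 and 0.977 CPM in resistant replicates 1 and 2, against 6.31 and 4.915 CPM in untreated replicates 1 and 2, from 37, 33, 233 and 184 counts. Both resistant libraries were several times below both untreated ones. The log2 fold change was −2.32 (SE 0.39, 95% interval −3.17 to −1.46, adjusted p = 0.00159), and 1.96% of all tested genes fell further. Exons of AL138689.2, an antisense gene not analysed here, overlap its own by 1313 bases, which leaves its value uncertain to that extent.

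EFNB1, which encodes ephrin-B1 and lies on the X chromosome, had 10.2 and 11.5 CPM in resistant replicates 1 and 2, against 23.2 and 21.7 CPM in untreated replicates 1 and 2. Replicates differed by 0.17 and 0.10 in log2, less than the median tested gene, and the groups were far apart. EFNB1 had a log2 fold change of −1.05 (SE 0.21, 95% interval −1.51 to −0.58, adjusted p = 0.0041). With each library left out it was −1.14 to −0.95 for EFNB1 and −2.50 to −2.10 for EFNB2. EFNA5, which encodes ephrin-A5, had 43.0 and 30.8 CPM in resistant replicates 1 and 2, against 35.99 and 33.85 CPM in untreated replicates 1 and 2. Its resistant values enclosed the untreated ones, with a log2 fold change of 0.08 (95% interval −0.36 to 0.51, adjusted p = 0.787). Without resistant replicate 1 it was −0.17.

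**Figure D2:**
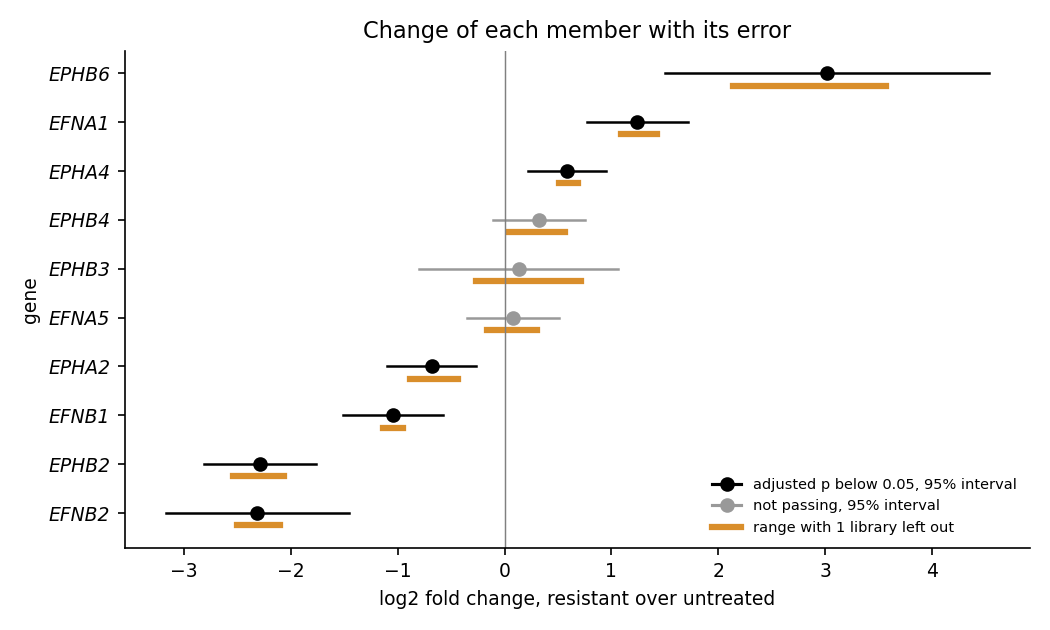
Log2 fold change of each gene, resistant over untreated, with its 95% interval (black where called, grey where not) and, in orange, the range of the estimate when each of the 4 libraries was left out. EPHB6 and EFNA1 lie highest, EFNB2 and EPHB2 lowest, and the intervals of EPHB4, EPHB3 and EFNA5 span 0.

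Levels were compared between genes as CPM per kilobase of merged exons, since longer transcripts give more reads. EPHB4, EPHA4 and EPHA2 made up nearly all receptor transcripts in every library. In resistant libraries the order was EPHB4 at 55.5 ± 14.5, EPHA4 at 55.2 ± 2.55 and EPHA2 at 35.2 ± 4.68 CPM per kilobase (SD, n = 2). In untreated libraries it was EPHA2 at 56.6 ± 11.4, EPHB4 at 44.5 ± 0.628 and EPHA4 at 36.8 ± 3.84 CPM per kilobase. EPHB4 and EPHA4 did not differ beyond their spread in resistant libraries, and in untreated ones EPHA2 stood above EPHB4 by little more than its own SD. Of the 3 lower members in resistant libraries, EPHB3 at 0.697 ± 0.0274 CPM per kilobase was above EPHB2 at 0.477 ± 0.107. EPHB2 and EPHB6 at 0.387 ± 0.255 overlapped. The order of EPHB3 and EPHB2 rests on merged lengths of 4236 and 12107 bases. Without scaling by length EPHB2 was higher in resistant replicates 1 and 2, at 4.865 and 6.69 CPM against 3.04 and 2.87 CPM. In untreated libraries EPHB2 at 2.34 ± 0.149 stood clear of EPHB3 at 0.637 ± 0.304, and EPHB6 was lowest at 0.0468 ± 0.0185 CPM per kilobase.

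Among the 4 ligands, EFNA1 came first in resistant libraries at 18.1 ± 2.81 CPM per kilobase, followed by EFNA5 at 6.91 ± 1.61, EFNB1 at 3.28 ± 0.278 and EFNB2 at 0.225 ± 0.0423 (SD, n = 2). Each neighbour in that order was apart from the next in both libraries. In untreated libraries EFNA1 at 7.66 ± 1.41, EFNB1 at 6.77 ± 0.335 and EFNA5 at 6.54 ± 0.284 CPM per kilobase overlapped, and EFNB2 was again lowest at 1.12 ± 0.197.

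The summed levels of all receptors and of all ligands overlapped between the groups, while the shares of EPHA2, EPHA4, EFNA1 and EFNB1 did not. Nor did the shares of several other family genes. Among them were EPHB4 (39.7% and 33.7% resistant, 29.6% and 30.9% untreated) and EFNA2 (13.1% and 9.66% resistant, 17.8% and 20.4% untreated). Such separation is common with 2 libraries per group, as the levels of 70.9% of all tested genes did not overlap. By class, only the ephrin-A ligands did not overlap, summing to 59.3 and 45.05 CPM per kilobase in resistant replicates 1 and 2. In untreated replicates 1 and 2 they summed to 37.7 and 43.96. The gap between 45.05 and 43.96 was small beside the resistant SD of 10.1. The sums of EphA receptors, EphB receptors and ephrin-B ligands overlapped. Over all 22 Eph and ephrin genes, receptors summed to 149.9 ± 22.0 CPM per kilobase in resistant and 147.1 ± 6.67 in untreated libraries, and ligands to 64.4 ± 12.9 and 56.3 ± 6.97 (SD, n = 2 each; described without a test). EPHA2 took 23.3% and 23.8% of summed receptor level in resistant replicates 1 and 2, against 42.6% and 34.1% in untreated replicates 1 and 2. EPHA4 took 34.5% and 39.8% in the resistant libraries, against 22.5% and 27.8% in the untreated ones. Thus EPHA4 exceeded EPHA2 in both resistant libraries, at 1.48 and 1.67 times its level per length, and stood below it in both untreated ones, at 0.528 and 0.815 times. EFNA1 took 27.3% and 29.2% of summed ligand level in resistant libraries, against 13.0% and 14.1% in untreated ones. EFNB1 took 4.19% and 6.29% against 13.7% and 10.7%.

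Ligand and receptor levels were also set against each other within each library, where scaling between libraries cancels. EFNA1 reached 0.521 and 0.505 times the EPHA2 level per length in resistant replicates 1 and 2, against 0.103 and 0.178 times in untreated replicates 1 and 2. Both genes had passed the test, the ligand higher and the receptor lower. EFNB2 was at 0.00388 and 0.00431 times the EPHB4 level in resistant libraries, against 0.028 and 0.0223 times in untreated ones. EFNB2 had passed the test and EPHB4 had not. EFNB1 over EPHB2 went the other way, at 7.67 and 6.29 times in resistant libraries, against 3.14 and 2.67 times in untreated ones, as both fell and EPHB2 fell more.

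**Figure D3:**
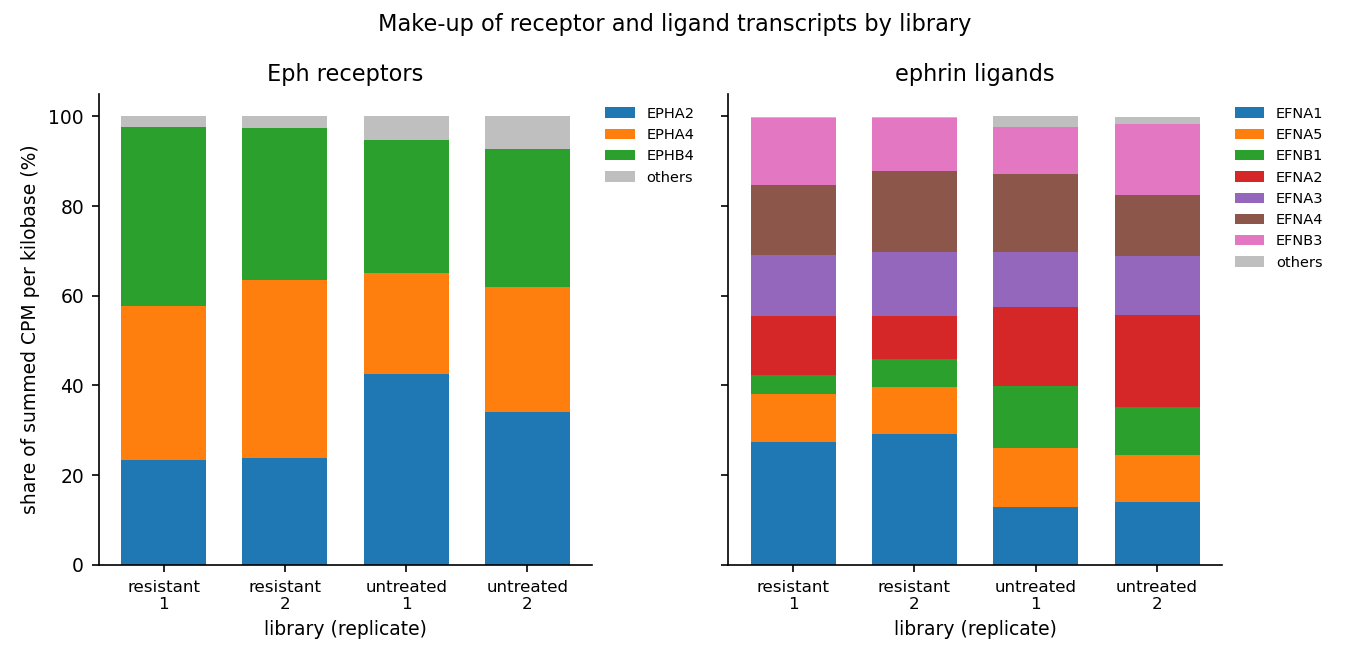
Share of each gene in the summed CPM per kilobase of Eph receptors (left panel) and of ephrin ligands (right panel), in percent, for resistant replicates 1 and 2 and untreated replicates 1 and 2. EPHA2 is a smaller part of the receptors (23.3% and 23.8%, against 42.6% and 34.1%) and EFNA1 a larger part of the ligands (27.3% and 29.2%, against 13.0% and 14.1%) in the resistant libraries.

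The members lie on 7 chromosomes, so their changes could be read beside those of nearby genes. For each, the 5 nearest tested protein-coding genes on either side were taken, other Eph and ephrin genes left out. EPHB2, EFNB2 and EPHB6 lay outside the range of their 10 neighbours. The median log2 fold change of neighbours was −0.12 for EPHB2 (range −0.96 to 2.09), −0.22 for EFNB2 (−1.09 to 1.41) and 0.18 for EPHB6 (−1.13 to 0.63). EPHB3 lay within the range of its neighbours (0.02 to 2.13). Its neighbours on chromosome 3 had a median of 0.80, with 5 of 10 called higher (16.6% over all tested genes). EPHB3 itself had 0.13, and 8 of the 10 exceeded it. The neighbours of EFNA1 had a median of 0.32, and 2 rose more than EFNA1. Of these 10 neighbours 2 were called higher, near the 16.6% of all tested genes.

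**Figure D4:**
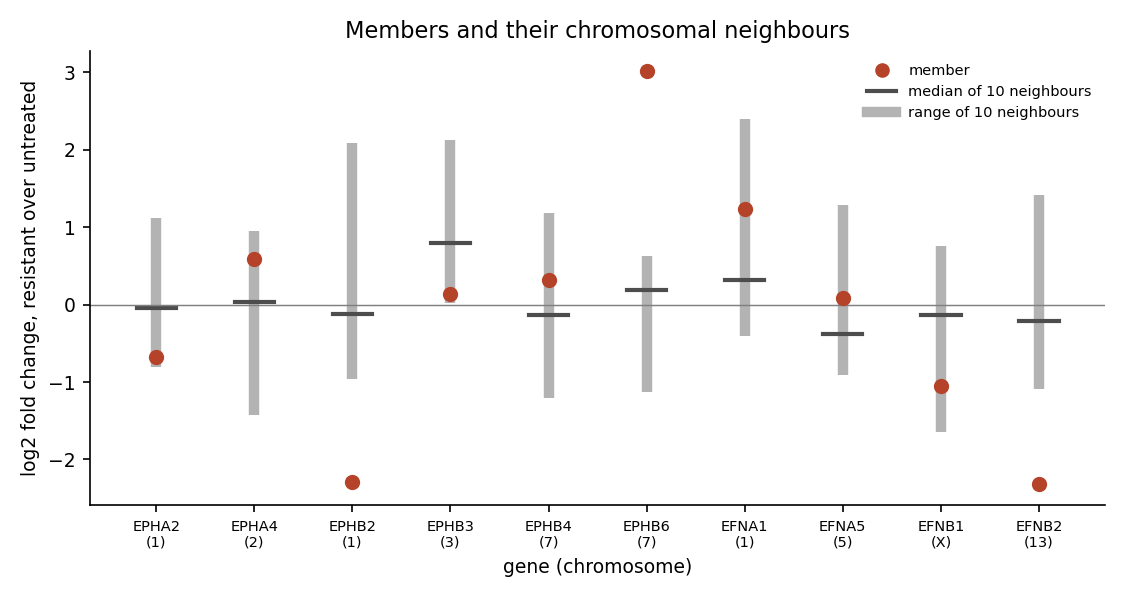
Log2 fold change, resistant over untreated, of each gene (red point) beside the median (dark bar) and range (grey bar) of the 10 nearest tested protein-coding genes on its chromosome, given in brackets. EPHB2 and EFNB2 lie below and EPHB6 lies above the range of their neighbours, and EPHB3 lies near the bottom of a neighbourhood with a median of 0.80.

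Of the 12 other genes of the family, 7 could be tested, and 2 of them fell while 5 did not pass. The share called was 28.6%, near the 34.0% of all tested genes. EPHA7, a receptor best known for guiding axons, had 2.45 and 3.14 CPM in resistant replicates 1 and 2, against 19.7 and 24.9 CPM in untreated replicates 1 and 2. It fell by 2.99 in log2 (SE 0.27, adjusted p = 3.96e-05), more than any of the 10 members. EPHA8, another receptor for ephrin-A ligands, had 2.24 and 0.888 CPM in resistant libraries, against 4.04 and 6.30 CPM in untreated ones (log2 fold change −1.73, SE 0.48, adjusted p = 0.0191). EPHA8 was at −1.20 (adjusted p = 0.0686) without resistant replicate 2, −1.38 (adjusted p = 0.0808) without untreated replicate 2 and −2.52 without resistant replicate 1. EPHA10 (−0.42), EFNA2 (−0.54), EFNA3 (0.31), EFNA4 (0.32) and EFNB3 (0.21) did not pass, with adjusted p from 0.177 to 0.668. EFNA2 was called without resistant replicate 1 (−1.003, adjusted p = 0.0387), and EFNB3 was below 0 without resistant replicate 1 (−0.18) or untreated replicate 1 (−0.14). EFNB3, the third ephrin-B ligand, had 35.02 and 21.02 CPM in resistant replicates 1 and 2, against 17.2 and 31.2 CPM in untreated replicates 1 and 2, a spread that leaves its direction undetermined.

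The remaining 5 were near or below detection. EPHA6 had 0 counts in all 4 libraries, and EPHA1 had 1 count in the resistant and 2 in the untreated libraries. EPHB1 had 6 counts in the resistant and 15 in the untreated libraries. EPHA3 had 11 counts in resistant replicate 1 and 0 in each of the other libraries, and EPHA5 had 11 counts in the resistant and 1 in the untreated libraries. None of these 5 passed the filter on low counts. In a fit with no filter EPHA3 was called higher (adjusted p = 0.0252), on counts from a single library, and EPHA1, EPHA5 and EPHB1 had adjusted p of 0.113 or more.

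Genes that work with Eph receptors were described by lists of 58 genes, of which 51 could be tested. The lists, too, were chosen with earlier results of these data known. Of these 17 rose, 5 fell and 29 did not pass (43.1% called, against 34.0% of all tested genes), with a median log2 fold change of 0.07. Without untreated replicate 1, 11 of 53 were called (20.8%, against 16.9% of all genes). Without untreated replicate 2, 13 of 52 were called (25%, against 28.6% of all genes), so that the lists then lay below the share over all genes.

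The shedding proteases, which cut ephrins and Eph receptors at the membrane or within it, had 5 of 10 members higher (16.6% over all tested genes) and 5 not passing, with a median log2 fold change of 0.61. ADAM17, a sheddase of many surface proteins, had 139.9 and 107 CPM in resistant replicates 1 and 2, against 50.8 and 61.6 CPM in untreated replicates 1 and 2 (log2 fold change 1.13, SE 0.18, adjusted p = 0.00134). Its exons overlap those of IAH1, an expressed gene on the opposite strand with a log2 fold change of 0.97, by 1323 bases, so its value is uncertain. APH1B, a subunit of gamma-secretase, had 13.4 and 13.1 CPM in resistant replicates 1 and 2, against 5.98 and 8.335 CPM in untreated replicates 1 and 2 (0.89, SE 0.26, adjusted p = 0.0253). Without untreated replicate 1 APH1B lost its call (0.69, adjusted p = 0.154). ADAM10, the protease that cuts ephrins bound to a receptor, averaged 279.5 ± 0.701 CPM in resistant and 284 ± 0.519 CPM in untreated libraries (−0.02, adjusted p = 0.924). Its sign turned under upper-quartile scaling, under a stricter filter or without untreated replicate 1.

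The adaptors and kinases that receive the forward signal had 6 of 17 tested members higher, 2 lower and 9 not passing (median −0.07). They were called in 47.1%, against 34.0% of all tested genes. GRB10, an adaptor that binds activated EphB1, had 48.1 and 60.1 CPM in resistant replicates 1 and 2, against 8.77 and 7.64 CPM in untreated replicates 1 and 2. Its log2 fold change was 2.72 (SE 0.20, adjusted p = 1.22e-05). EPHB1 itself was near the limit of detection, with 6 counts in the resistant and 15 in the untreated libraries. INPPL1, the lipid phosphatase SHIP2 that binds the tail of EPHA2, rose to 184 ± 12.8 CPM in resistant libraries, against 116 ± 6.27 CPM in untreated ones (0.67, adjusted p = 0.00901), and was not called without untreated replicate 1 (0.64, adjusted p = 0.0588). GRB7, a relative of GRB10, had 19.5 and 12.5 CPM in resistant libraries, against 27.4 and 36.8 CPM in untreated ones (−1.01, SE 0.25, adjusted p = 0.0124), and was not called without untreated replicate 2 (−0.79, adjusted p = 0.0588). The phosphatase PTPN11 had a log2 fold change of −0.31 (adjusted p = 0.181), and its exons overlap those of the abundant RPL6.

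The effectors that carry the signal to the actin cytoskeleton had 2 of 13 tested members higher, 2 lower and 9 not passing (median −0.12). Their share called was 30.8%, near the 34.0% of all tested genes. NGEF, which encodes ephexin, an exchange factor that acts downstream of EPHA4 in neurons, had 12.4 and 8.17 CPM in resistant replicates 1 and 2, against 74.2 and 69.6 CPM in untreated replicates 1 and 2. Resistant libraries lay far below untreated ones, and NGEF changed by −2.81 in log2 (SE 0.22, adjusted p = 1.78e-05). Its exons overlap those of SNORC, on the opposite strand with a log2 fold change of −1.30, by 23 bases. TIAM1, an exchange factor for RAC1, had 2.97 and 6.395 CPM in resistant libraries, against 11.45 and 14.4 CPM in untreated ones (−1.46, SE 0.36, adjusted p = 0.0121). TIAM1 was at −0.9975 without resistant replicate 1 and −2.12 without resistant replicate 2. PAK1, a kinase activated by RAC1 and CDC42, rose by 0.97 (SE 0.16, adjusted p = 0.00174). RAC1 itself had a log2 fold change of 0.16 (adjusted p = 0.484).

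Partners of reverse signalling through ephrin-B had 1 of 6 tested members higher and 5 not passing (median 0.14), a share of 16.7% beside 16.6% of all tested genes. The riser was DVL2, a Dishevelled protein that binds the ephrin-B tail, at 103.6 ± 19.1 CPM in resistant and 58.6 ± 0.427 CPM in untreated libraries (0.82, SE 0.17, adjusted p = 0.00469). SDCBP, the PDZ protein syntenin, had a log2 fold change of 0.30 (adjusted p = 0.151). Phosphatases that act on Eph receptors had 3 of 5 tested members higher, 1 lower and 1 not passing (median 0.62), against 16.6% higher and 17.4% lower over all tested genes. PTPRJ, a receptor-type phosphatase, had 101.7 and 107.6 CPM in resistant replicates 1 and 2, against 16.2 and 25.5 CPM in untreated replicates 1 and 2 (2.33, SE 0.22, adjusted p = 7.05e-05). PTPN1, the phosphatase PTP1B, had 34.85 and 24.4 CPM in resistant libraries, against 74.8 and 60.2 CPM in untreated ones (−1.19, SE 0.21, adjusted p = 0.00205). PTPRF rose by 0.63 (adjusted p = 0.0224) and lost its call without resistant replicate 1 (0.43, adjusted p = 0.283), untreated replicate 1 (adjusted p = 0.13) or untreated replicate 2 (adjusted p = 0.0631). ACP1, a low molecular weight phosphatase, had a log2 fold change of −0.10 (adjusted p = 0.638), and its exons overlap those of SH3YL1 by 359 bases.

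**Figure D5:**
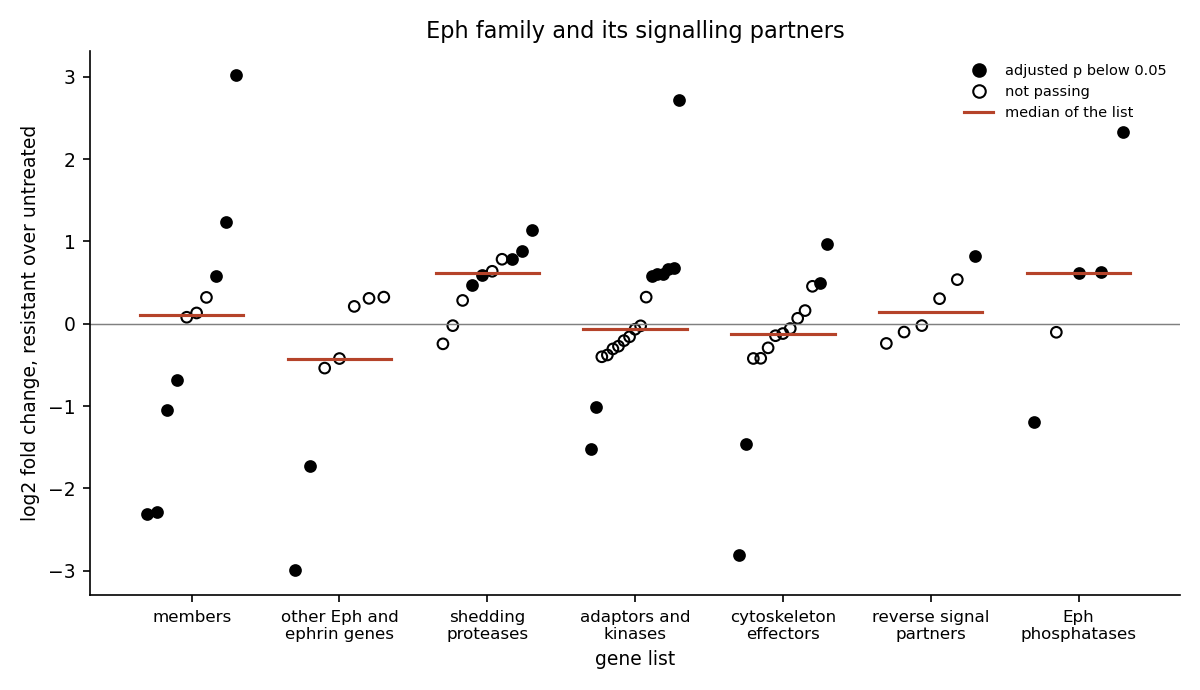
Log2 fold change, resistant over untreated, of each tested gene in the 10 members, the other family genes and the 5 lists of signalling partners, with filled points for genes called at an adjusted p below 0.05 and a red line at each list's median. The shedding proteases and Eph phosphatases have medians of 0.61 and 0.62, while the members spread from −2.32 to 3.01.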

How the data were processed

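Polyadenylated RNA from 2 resistant and 2 untreated MIA-PaCa2 samples was sequenced, with titles giving each sample's group. The authors deposited 1 table per library, whose header names expected counts, and the values carry no scaling for depth. The submitters' processing notes list STAR 2.7.2b and RSEM 1.3.1, and give GRCh37 as genome build, without roles. The annotation release and strand setting are not given in the sources used here.

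Expected counts (93.6% whole) were rounded. Gene symbols came from a table that named 39538 of the 57773 IDs. edgeR 4.0.16 (R 4.3.3) was run on all genes with filterByExpr, TMM scaling and the quasi-likelihood F-test with robust dispersions. The common biological coefficient of variation was 19.6%. CPM use the TMM-scaled library sizes. The SE is the log2 fold change divided by the square root of F, and 95% intervals use the test's degrees of freedom. Floors cover counting error only. Gene lengths, exon overlaps and gene order came from GENCODE 29, on another build than the counts, and no coordinates were taken from it. Upstream windows came from the RefSeq promoter table, which matched all 10 genes.

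The members and lists were chosen with earlier results of these data known. All members were named. Of each list of partners, up to 3 called genes with the smallest adjusted p and the highest member not called were named. A gene that this rule names is not reported here. Alternatives were other scalings (RLE, upper quartile), filters (none, or 1 CPM in 2 libraries), a replicate block, each library left out, a threshold of 0.01, DESeq2 1.42.0, limma-voom (limma 3.58.1) and edgeR's newer quasi-likelihood form. After the data had been seen, gene length was also taken from the longest protein-coding transcript.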

Additional observations from a re-analysis of the deposited data

How the results depend on the processing

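Of the 10 Eph and ephrin genes, 7 were called under RLE and upper-quartile scaling, without a filter, with DESeq2, limma-voom and edgeR's newer form. With a stricter filter 6 were called, because EPHB6 was no longer tested, and at a threshold of 0.01, 5 were called, with EPHA2 and EPHA4 lost. With each library left out in turn the number was 4 to 7, lowest without untreated replicate 1, and the number over all genes was 2832 to 5041. At the threshold of 0.01 it was 2832 over all genes as well. The replicate number as a block gave 7 of the 10 genes and 5275 of all genes. Deviations of same-numbered libraries from their group means correlated at −0.03, so the numbers were not taken to pair the samples. Signs turned in genes that had not passed, with log2 fold changes over the left-out libraries of −0.27 to 0.71 for EPHB3, −0.17 to 0.30 for EFNA5, −0.18 to 0.69 for EFNB3 and −0.036 to 0.0012 for ADAM10. ADAM10 also turned under upper-quartile scaling (0.0019) and a stricter filter (0.0081). The cause was not tested. Taking gene length from the longest protein-coding transcript moved the EPHA2 share in resistant libraries to 23%, against 23.5% with merged exons. Levels below 0.104 CPM could not be told from 0 at this depth.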
